A study of Mus musculus with 11 samples.

Results

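The 33 genes described here were chosen by name for known roles in synapsis, recombination, meiotic progression and germ cell structure. Earlier results of these data were known when they were chosen. All 33 were found, by symbol, among the 24411 genes of a count table from mouse testis. The table covers 11 libraries of polyadenylated RNA from whole decapsulated testis of 20-week-old mice. Of these, 4 were wild type (WT), 4 were Irp1-/- (a global knockout of Aco1, the gene of iron regulatory protein 1) and 3 were Irp2-/- (labelled a knockout of Irp2, whose gene is Ireb2, that of iron regulatory protein 2), and no treatment was given. The study used the tm1Roua allele of Aco1 on a C57Bl/6J background with WT littermates. The allele, background and litters of the Irp2-/- mice are not given in the sources used here.

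In meiotic prophase I, homologous chromosomes pair, are joined by the synaptonemal complex and exchange DNA. SPO11 cuts the DNA, the recombinase DMC1 carries the strands into the homologue, and MutS and MutL family proteins with the helicase HFM1 turn some of these exchanges into crossovers. In the testis these steps take place in primary spermatocytes, from leptotene through zygotene and pachytene to diplotene. The iron regulatory proteins bind iron-responsive elements in transcripts of iron metabolism.

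Total counts lay between 15902473 and 22451417 per library. Levels are given as CPM, counts scaled to a common library total with TMM factors, which describe the share of a transcript in the sequenced RNA. In whole testis, fewer cells of a type and less RNA per cell cannot be told apart. Aco1 was at 8.58 ± 0.622 CPM in Irp1-/- (SD, n = 4) and 11.8 ± 1.36 CPM in WT (SD, n = 4), a log2 fold change of -0.45 (SE 0.098, edgeR quasi-likelihood test, Benjamini-Hochberg adjusted p = 0.0158). Ireb2 was at 62.2 ± 0.514 CPM in Irp2-/- (SD, n = 3) and 139.6 ± 5.84 CPM in WT (SD, n = 4), a log2 fold change of -1.16 (SE 0.050, adjusted p = 2.84e-13 by the same test). Each targeted gene was thus lower in its own knockout, and transcripts of both were still counted. The spermatocyte markers summed to between 8799 and 9617 CPM over the 11 libraries. Of the 5 epididymis markers, Lcn5 was at 0 in 11 libraries and the other 4 did not exceed 0.251 CPM.

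Promoter sequence is shown for Hfm1, Sycp1 and Hormad1, because their levels did not overlap between Irp1-/- and WT, the pattern described further on. Sycp2, the fourth member with that pattern, is not shown, since 27 of its 100 bases lie in an exon. Each line is the 100 bases before the gene's start in RefSeq GRCm38.p6 (the assembly also called mm10), read 5′ to 3′ on the gene's strand, and capitals mark the letters of the motifs searched. The Hfm1 window is at chr5:106925891-106925990 on the minus strand, inside the gene's annotated span, since a longer transcript begins upstream. The Sycp1 window is at chr3:102936101-102936200 on the minus strand, and the Hormad1 window at chr3:95559577-95559676 on the plus strand. None of the 3 windows shown holds a base of an exon in GENCODE M21.
Hfm1: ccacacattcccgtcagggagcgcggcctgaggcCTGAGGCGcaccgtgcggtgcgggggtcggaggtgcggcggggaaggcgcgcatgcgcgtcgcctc
Sycp1: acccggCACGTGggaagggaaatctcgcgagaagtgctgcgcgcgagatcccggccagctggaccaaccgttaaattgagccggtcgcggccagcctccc
Hormad1: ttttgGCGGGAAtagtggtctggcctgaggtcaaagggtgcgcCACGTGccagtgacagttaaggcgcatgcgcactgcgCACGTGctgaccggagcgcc
Hfm1 holds CTGAGGCG, the reverse complement of the letters CNCCTCAG that are known from promoters bound by STRA8 and MEIOSIN, the inducers of meiotic entry. Sycp1 and Hormad1 hold the E-box CACGTG, once and at 2 places, and Hormad1 also holds GCGGGAA, a core of E2F sites.

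These letters were counted on both strands in the 250 bases before the start of the 29 members that have such a window in the RefSeq table, and in 12362 windows of genes tested. The E2F core GCGGGAA stood in 6 members (Hormad1, Msh5, Smc1b, Sycp3, Tex12 and Tex14), which is 20.7%, and in 6.35% of all windows. The E-box CACGTG stood in 5 members (Hormad1, Stag3, Sycp1, Sycp3 and Tex12), which is 17.2%, and in 7.81% of all windows. The letters CNCCTCAG were found in 3 members (Hfm1, Hormad2 and Msh5), which is 10.3%, and in 7.14% of all windows. The cyclic AMP response element TGACGTCA was in 0 of the 29 windows and in 2.58% of all. The 4 motifs do not overlap each other in these windows, and a match is a description of letters, not of a bound site.

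Levels in WT testis were compared between genes as CPM per kb of exon. The length was that of all annotated exons of a gene in GENCODE M21, merged. The order of genes depends on these lengths, and the ranges over libraries carry no error of length. The levels spanned 4 orders of magnitude. Ybx2, which encodes a germ cell protein that binds and stores messenger RNA, was the highest with 1366 ± 33.3 CPM per kb (SD, n = 4). Syce1, a central element protein of the synaptonemal complex, followed with 260.04 ± 13.2, and Sycp3, which forms the lateral elements, with 119.4 ± 2.59 CPM per kb (both SD, n = 4). The ranges of these 3 genes over the 4 WT libraries did not overlap with each other or with the next gene, Stag3 (85.3 ± 1.01 CPM per kb, SD, n = 4), the cohesin subunit specific to meiosis.

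**Figure D1:**
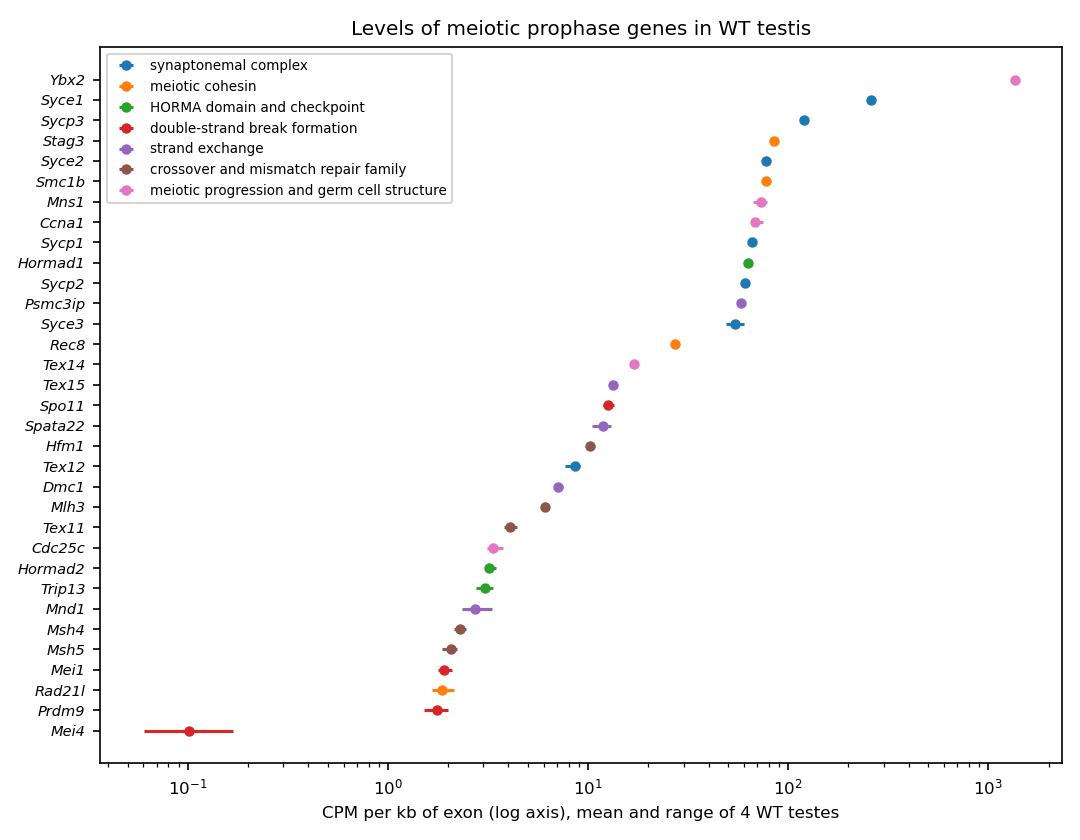
Level of each of the 33 genes in WT testis as CPM per kb of exon on a log axis, with the mean (point) and the range (line) of 4 WT libraries, coloured by role. Ybx2 lies at 1366 and Mei4 at 0.101 CPM per kb, and most neighbours from Syce2 down to Syce3 overlap.

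Below Stag3, most neighbours in the order could not be separated. Syce2 (77.5 CPM per kb), Smc1b (77.1), Mns1 (72.8), Ccna1 (68.5) and Sycp1 (65.6) formed a run in which each overlapped with the next, and the same was true from Hormad1 (63.3) through Sycp2 (60.9) and Psmc3ip (58.3) to Syce3 (54.4). Sycp1 did not overlap with Hormad1. Structural genes of the axis and the central region filled much of the upper part of the order, with 5 of the 7 synaptonemal complex genes and 2 of the 4 cohesin genes at or above 60.9 CPM per kb.

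Genes of break formation were low. Mei4, a partner of the break machinery, was the lowest with 0.101 ± 0.049 CPM per kb (SD, n = 4) and only 4 to 14 counts in a library. It was at 0.448, 0.249, 0.690 and 0.277 CPM in WT replicates 1 to 4, 0.628, 0.360, 0.399 and 0.754 CPM in Irp1-/- replicates 1, 2, 6 and 7, and 0.623, 0.410 and 0.210 CPM in Irp2-/- replicates 1 to 3, so that the genotypes could not be separated at this depth. Prdm9, the histone methyltransferase that places the breaks, was at 1.77 ± 0.202 CPM per kb (SD, n = 4) and Rad21l, a meiotic kleisin of cohesin, at 1.85 ± 0.200 CPM per kb (SD, n = 4). Mei4 lay apart from all other members, while Prdm9, Rad21l, Mei1 (1.90), Msh5 (2.07) and Msh4 (2.30 CPM per kb) each overlapped with its neighbour. Spo11, the nuclease that makes the breaks, stood well above its partners with 12.7 ± 0.783 CPM per kb (SD, n = 4).

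The spread between WT libraries was near counting error for some members and well above it for others. Sycp1 varied by a coefficient of variation of 0.813% over the 4 WT libraries and Stag3 by 1.18%, where counting error alone gives 1.57% and 1.09%. Above counting error were Mns1 (6.73%, with 1.22% from counting), Ccna1 (6.33% and 2.14%), Syce1 (5.08% and 1.23%) and Ybx2 (2.44% and 0.473%). Rad21l had 33 to 87 counts in a library, a WT coefficient of variation of 10.8% and a counting error of 13.7%. Mnd1 had 33 to 72 counts, a WT coefficient of variation of 15.6% and a counting error of 15.5%.

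Some members share exon sequence with a neighbouring gene in GENCODE M21. Opposite-strand exons cover 53.0% of Mns1 (Tex9), 52.2% of Sycp3 (Chpt1), 21.2% of Psmc3ip (Mlx), 12.7% of Cdc25c (Gm3550), 10.1% of Ccna1 (4931419H13Rik) and 1.81% of Msh4 (Gm24395), and a same-strand gene, Gm49340, covers 80.5% of Spata22. The kit marks strand, but whether the counting used it is not given in the sources used here, so the values of these 7 genes are uncertain to that extent.

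The comparison of Irp1-/- with WT asked whether the loss of iron regulatory protein 1 changes gene expression related to spermatogenesis. Among the members, Hfm1 alone passed the test, with a fitted difference of -11.9% from WT (95% interval -17.4 to -6.00%). The largest fitted differences, in Rad21l (-25.8%) and Mnd1 (24.1%), were imprecise, with 95% intervals of -43.6 to -2.45% and -4.34 to 60.98%. Of 32 members tested, 1 was called at adjusted p under 0.05, against 1.02% of all 16002 genes tested, and 0.444% for genes called lower. Mei4 had too few counts to be tested. DESeq2 called Hfm1 and no other member here.

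Hfm1, the helicase needed for crossover formation and full synapsis, is at chr5:106840193-106926712. WT replicates 1 to 4 had 65.3, 69.2, 66.9 and 71.0 CPM of Hfm1. Irp1-/- replicates 1, 2, 6 and 7 had 59.4, 61.9, 57.7 and 60.9 CPM. Every Irp1-/- library was below every WT library. The means were 60.0 ± 1.82 CPM in Irp1-/- (SD, n = 4) and 68.1 ± 2.53 CPM in WT (SD, n = 4), with a log2 fold change of -0.18 (SE 0.045, edgeR adjusted p = 0.0445).

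This call sat close to the threshold. The adjusted p for Hfm1 was 0.177 without Irp1-/- replicate 1, 0.138 without Irp1-/- replicate 6, 0.160 without WT replicate 2, 0.0772 without WT replicate 3 and 0.149 without WT replicate 4 (all edgeR). It was 0.0754 when libraries were scaled by their totals only and 0.0879 when all 11 libraries shared 1 fit, and 0.0422 with DESeq2. The log2 fold change stayed between -0.20 and -0.16 in every fit that left out a library.

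The synaptonemal complex genes gave 0 calls among 7 tested by edgeR or DESeq2 (3 with an unadjusted p under 0.05 by edgeR), with 6 of 7 log2 fold changes below 0 and a median of -0.073, beside -0.00079 over all genes tested. Sycp2, a lateral element protein, had 334.1, 340.3, 342.1 and 338.4 CPM in Irp1-/- replicates 1, 2, 6 and 7 and 357.0, 346.8, 377.1 and 372.2 CPM in WT replicates 1 to 4. All Irp1-/- values lay below all WT values. The log2 fold change of Sycp2 was -0.10 (SE 0.037), with an unadjusted p of 0.0112 and an adjusted p of 0.224 by edgeR.

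Sycp1, the transverse filament that spans the complex, had 217.1, 216.0, 224.6 and 229.9 CPM in Irp1-/- and 231.1, 234.3, 232.4 and 235.4 CPM in WT, in the same order of replicates. These values did not overlap either, but the highest Irp1-/- value was close to the lowest WT value, and the adjusted p was 0.444 (log2 fold change -0.073, SE 0.037, edgeR). Syce2, a central element protein, had 137.8, 151.9, 128.8 and 137.8 CPM in Irp1-/- against 148.4 to 155.1 CPM in WT, so that only Irp1-/- replicate 2 reached the WT range. Its log2 fold change was -0.13 (SE 0.044, edgeR adjusted p = 0.172).

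Sycp3 had 141.4, 139.3, 136.1 and 152.3 CPM in Irp1-/- and 147.6 to 153.8 CPM in WT. Irp1-/- replicate 7 lay inside the WT range, and the log2 fold change was -0.087 (SE 0.041, edgeR adjusted p = 0.394). Syce1 showed no such difference, with 380.2 ± 8.42 CPM in Irp1-/- beside 379.7 ± 19.3 CPM in WT (SD over 4 libraries of each genotype) and a 95% interval of -5.34 to 5.90%. By library, Syce1 was at 376.1, 374.2, 377.8 and 392.6 CPM in Irp1-/- and 396.4, 396.3, 363.3 and 362.6 CPM in WT, which overlap. Summed over the 7 genes, the level was 1244 to 1288 CPM in the 4 Irp1-/- libraries and 1311 to 1327 CPM in the 4 WT libraries.

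**Figure D2:**
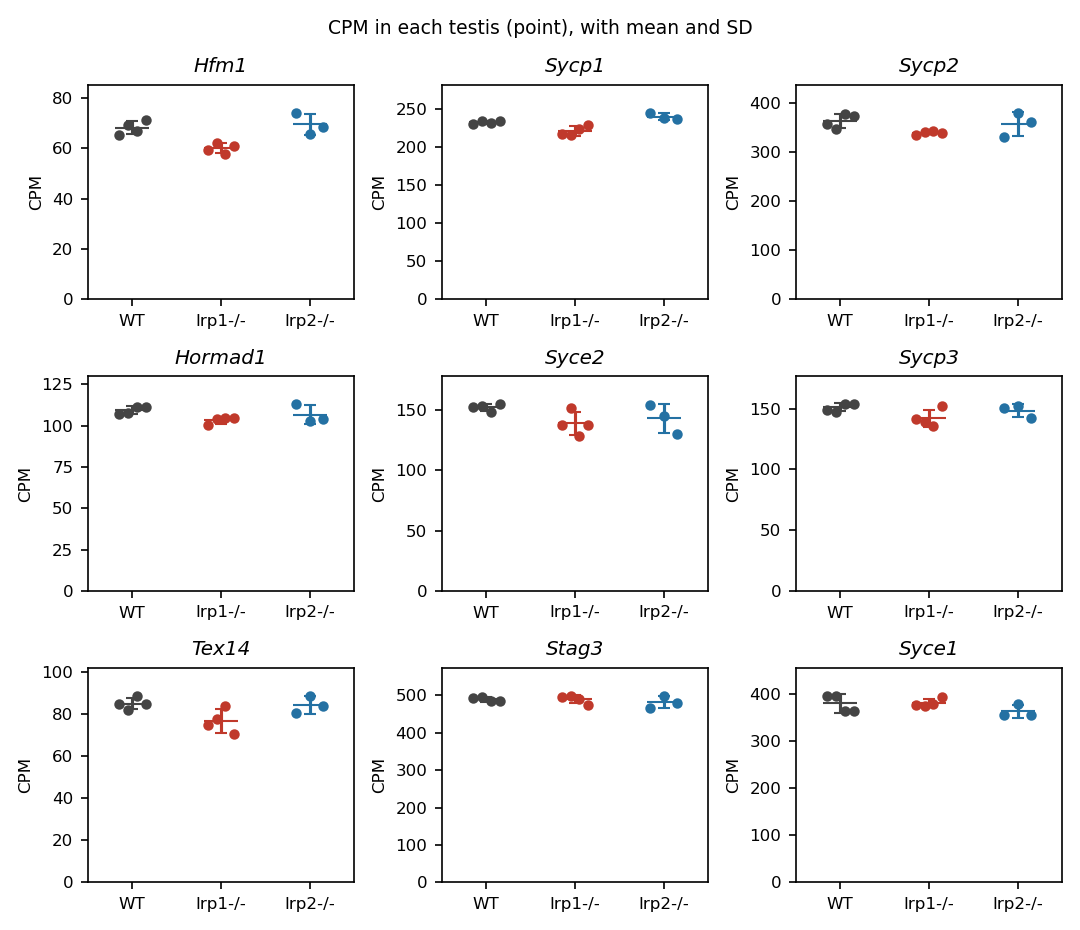
CPM of 9 members in each testis (points), with the mean and SD of each genotype, for 4 WT, 4 Irp1-/- and 3 Irp2-/- libraries, each axis starting at 0. For Hfm1, the Irp1-/- libraries lie between 57.7 and 61.9 CPM, below every WT and Irp2-/- library, whereas Stag3 and Syce1 overlap between the genotypes.

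The HORMA domain proteins HORMAD1 and HORMAD2 mark unsynapsed axes, and the ATPase TRIP13 removes them. Hormad1 had 100.2, 103.8, 104.4 and 104.8 CPM in Irp1-/- replicates 1, 2, 6 and 7 and 107.0, 107.8, 111.3 and 111.4 CPM in WT replicates 1 to 4. Here too the genotypes did not overlap, and the log2 fold change was -0.083 (SE 0.039, edgeR adjusted p = 0.393). Hormad2 (9.40 and 8.78 CPM in Irp1-/- and WT) and Trip13 (9.48 and 10.6 CPM) overlapped.

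Cohesin holds sister chromatids together and forms the core of the axis. Stag3 and Smc1b, its 2 most abundant meiotic subunits in CPM per kb, had 95% intervals for the difference from WT of -4.73 to 5.31% and -4.23 to 6.51%. Rad21l was at 2.32 CPM in Irp1-/- and 3.08 CPM in WT on average, with 2.35, 1.89, 1.65 and 3.39 CPM in the Irp1-/- libraries and 2.76 to 3.54 CPM in WT. Only Irp1-/- replicate 7 was within the WT range, but these values rest on 33 to 57 counts and the adjusted p was 0.352 (log2 fold change -0.43, SE 0.19, edgeR).

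Genes of break formation and strand exchange gave 0 calls among 3 and 5 tested by edgeR or DESeq2, and 0 with an unadjusted p under 0.05 by edgeR. Prdm9 had 7.38, 7.19, 5.69 and 6.91 CPM in Irp1-/- and 6.55, 7.33, 7.99 and 8.57 CPM in WT, which overlap. Spo11 was at 50.3 CPM in Irp1-/- and 49.6 CPM in WT, with a 95% interval of -7.18 to 10.4%. Dmc1, the recombinase specific to meiosis, was at 16.02 and 17.2 CPM, with an interval of -16.9 to 3.64%. Tex15, a germ cell protein needed for meiotic recombination, was at 125.4 and 127.7 CPM. Mnd1, which works with Psmc3ip to help DMC1, was at 2.998 and 2.38 CPM and had too wide an interval (-4.34 to 60.98%) to show a difference of that size.

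In the crossover group, Hfm1 was the only call among 5 genes tested. The MutS homologues Msh4 (15.9 and 15.8 CPM in Irp1-/- and WT) and Msh5 (10.8 and 11.4 CPM), the MutL homologue Mlh3 (46.3 and 46.0 CPM) and Tex11 (14.9 and 14.7 CPM), which lies on the X chromosome, overlapped between the genotypes. The 95% interval of Mlh3, the best measured of the 4, was -5.90 to 8.15%.

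Among genes of meiotic progression, Tex14, which keeps germ cells joined by intercellular bridges, had 74.8, 77.4, 83.6 and 70.4 CPM in Irp1-/- replicates 1, 2, 6 and 7 and 81.8 to 88.6 CPM in WT. Only Irp1-/- replicate 6 reached the WT range, and the log2 fold change was -0.15 (SE 0.048, edgeR adjusted p = 0.159). Ybx2 had 2440, 2558, 2467 and 2492 CPM in Irp1-/- and 2660, 2585, 2541 and 2517 CPM in WT, which overlap, with a 95% interval of -7.99 to 1.51%. Ccna1, the germ cell cyclin of the first meiotic division, Cdc25c, a phosphatase that drives entry into division, and Mns1, a structural protein of the germ cell nucleus and the sperm tail, overlapped between the genotypes.

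Over the 32 members tested, 22 had a lower mean fit in Irp1-/- and 10 a higher one, which is 68.8% lower, while 50.3% of all genes tested were lower. The median log2 fold change of the members was -0.042. Since the members were chosen with earlier results of these data known, the shares in this paragraph are descriptions and not a test. An unadjusted p under 0.05 was reached by 7 members, all lower (Hfm1, Tex14, Syce2, Sycp2, Rad21l, Hormad1 and Sycp3), and by 5.44% of all genes in that direction. The genotypes did not overlap for 4 members, all lower (Hfm1, Sycp2, Hormad1 and Sycp1), and for 3.42% of all genes in that direction. For 27 of the 32 members, the 95% interval lay within 20% of WT in either direction. The exceptions were Prdm9, Hormad2, Trip13, Rad21l and Mnd1.

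By library, between 20 and 26 of the 33 members were below their WT mean in each Irp1-/- testis, with median log2 deviations from -0.062 in replicate 1 to -0.013 in replicate 2. In the WT libraries, 17 to 20 members were below that mean, and in the Irp2-/- libraries 14 to 23. Summed over all 33 members, the level was 5761 to 5929 CPM in Irp1-/- and 5917 to 6150 CPM in WT, which overlap. Without Ybx2, the sums were 3320 to 3371 and 3400 to 3490 CPM and did not overlap. Sums of the HORMA group did not overlap either. Those of the cohesin, break formation, strand exchange, crossover and meiotic progression groups overlapped.

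A list of 26 other meiotic prophase genes was examined in the same libraries. Like the members, it was chosen with earlier results of these data known. Of its genes, 23 were in the table and tested, with 0 calls in Irp1-/- against WT by edgeR or DESeq2. Of these 23, 22 had a log2 fold change below 0, with a median of -0.075, and 2 reached an unadjusted p under 0.05 (both lower, Cntd1 among them). Meioc, needed to sustain the meiotic programme, was the most abundant of them, with a log2 fold change of -0.075 (SE 0.039, edgeR adjusted p = 0.447). Their summed level was 721.5 to 745.4 CPM in Irp1-/- and 747.1 to 778.3 CPM in WT. Of 15 somatic counterparts of the cohesin, strand exchange and mismatch repair genes, such as Rad21 and Smc3, 11 were lower with a median of -0.050, with 0 calls by edgeR or DESeq2. At an unadjusted p under 0.05 by edgeR, 2 were lower and 1 higher, and 2 genes did not overlap between the genotypes in each direction.

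Markers of other cell types differed in both directions. All 10 Sertoli cell markers had a log2 fold change above 0 in Irp1-/- against WT, with a median of 0.12 and a summed level of 1435 to 1647 CPM in Irp1-/- and 1320 to 1412 CPM in WT. Of these, Clu, a secreted chaperone, passed the test (log2 fold change 0.16, SE 0.041, edgeR adjusted p = 0.0473). Of 7 Leydig cell markers, 6 were higher with a median of 0.40, which was 0.20 to 0.56 when a library was left out. The 7 markers had 0 calls by edgeR, 1 by DESeq2 and 2 at an unadjusted p under 0.05 by edgeR. Their summed level was 994.6 to 1191 CPM in Irp1-/- and 736.5 to 1067 CPM in WT. The WT libraries were themselves split for some of these markers. Cyp17a1 was at 95.5 and 91.7 CPM in WT replicates 1 and 2 and at 238.4 and 191.7 CPM in WT replicates 3 and 4. In Irp1-/- it was at 205.0 to 300.4 CPM. Insl3 was not split, with 483.3 to 519.3 CPM in WT. Of 12 spermatocyte markers, 10 were lower with a median of -0.041, and their summed levels overlapped, with 9186 to 9532 CPM in Irp1-/- and 9221 to 9617 CPM in WT. Lower too were 9 of 11 spermatogonial markers tested (median -0.027), 7 of 10 elongating spermatid markers (median -0.041) and 3 of 4 endothelial markers (median -0.063), while 8 of 10 round spermatid markers were higher (median 0.030). In these 5 lists edgeR and DESeq2 made 0 calls, and an unadjusted p under 0.05 was reached by 1 spermatocyte and 3 elongating spermatid markers, all lower, and by 2 round spermatid markers, both higher (edgeR). Higher too were 5 of 7 macrophage markers (median 0.017), 3 of 5 peritubular myoid markers (median 0.046) and all 3 blood markers tested (median 0.74). These lists had 0 calls by edgeR or DESeq2, and 1 macrophage marker, higher, reached an unadjusted p under 0.05 (edgeR). Blood markers were low, with Hba-a2 at 0 in 9 libraries. The part of these shifts in the fitted differences of the meiotic genes, of which only that of Hfm1 was called, was not tested.

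**Figure D3:**
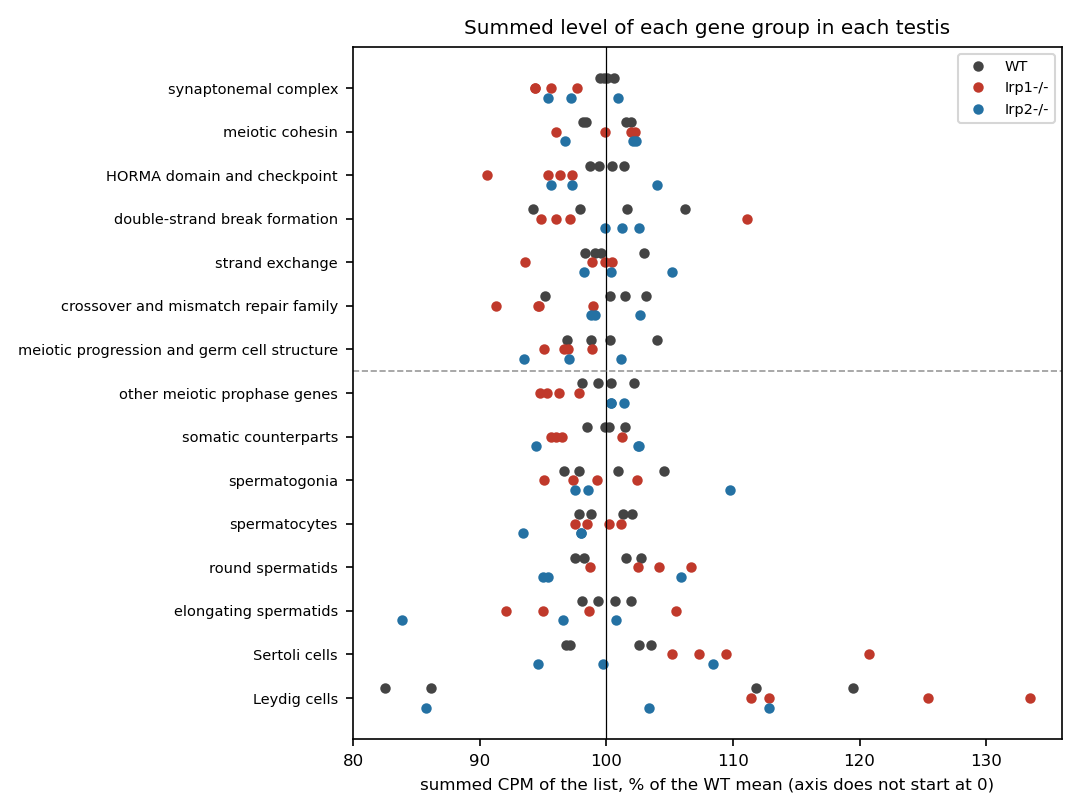
Summed CPM of each gene group in each testis as a percentage of the WT mean (x axis, not starting at 0), for the 7 role groups of the members (above the dashed line) and for other meiotic genes, somatic counterparts and cell type markers (below it), in WT, Irp1-/- and Irp2-/-. Synaptonemal complex sums in Irp1-/- lie between 94.4 and 97.7% of the WT mean, and Sertoli sums between 105.2 and 120.8%. Sums of the cohesin, break formation, strand exchange, crossover and meiotic progression groups overlap between Irp1-/- and WT.

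The comparison of Irp2-/- with WT gave 0 calls among the 32 members tested by edgeR, where 1.21% of all 16154 genes were called. DESeq2 also gave 0, and an unadjusted p under 0.05 was reached by 0 of the 32 members and by 9.42% of all genes tested. The members were split between 17 lower and 15 higher, with a median log2 fold change of -0.012, while 48.7% of all genes were lower and their median was 0.0033. This comparison uses the same 4 WT libraries as the one above.

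Hfm1 had 74.1, 65.8 and 68.3 CPM in Irp2-/- replicates 1 to 3, spread over and above the WT range of 65.3 to 71.0 CPM. Its 95% interval for the difference from WT was -5.49 to 10.5%. Sycp1 was the only member whose genotypes did not overlap, against 4.65% of all genes that did not overlap and were higher, with 245.9, 238.3 and 237.7 CPM in Irp2-/- above the WT maximum of 235.4 CPM. The log2 fold change of Sycp1 was 0.047 (SE 0.043, edgeR adjusted p = 0.840).

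The intervals of 24 of the 32 members lay within 20% of WT in either direction. Syce2, with 154.6, 144.8 and 130.1 CPM in Irp2-/- replicates 1 to 3, and Sycp2, with 330.9, 379.9 and 360.3 CPM, spread more widely in Irp2-/- than in WT. The summed synaptonemal complex level was 1257 to 1331 CPM and overlapped with WT. Of the 23 other meiotic prophase genes, 9 were lower and 14 higher than in WT, with 0 calls by edgeR or DESeq2 and 0 at an unadjusted p under 0.05 by edgeR. Among 12 spermatocyte markers, 11 were lower in Irp2-/- than in WT (median log2 fold change -0.033), with 0 calls by edgeR and 1, lower, by DESeq2. All 10 elongating spermatid markers were lower (median -0.081), with 0 calls by edgeR or DESeq2. Round spermatid and Sertoli markers were each split between 5 lower and 5 higher. Higher were 7 of 11 spermatogonial markers tested (median 0.075) and 4 of 7 Leydig markers (median 0.069). When a library was left out, these medians ran from -0.013 to 0.081 and from -0.24 to 0.31. Higher too were all 7 macrophage markers (median 0.20) and 4 of 5 peritubular myoid markers (median 0.070), with 0 calls by edgeR or DESeq2. An unadjusted p under 0.05 (edgeR) was reached by 1 macrophage, 1 myoid and 2 endothelial markers, all higher. Lower at that threshold were 2 spermatocyte, 1 elongating spermatid, 1 spermatogonial and 1 Leydig marker.

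The direct comparison of Irp1-/- with Irp2-/- tests whether the 2 knockouts differ from each other. Hfm1 was again the only member called, of 33 tested, where 4.69% of all 16281 genes were called and 1.76% were called lower. It had 60.0 ± 1.82 CPM in Irp1-/- (SD, n = 4) and 69.4 ± 4.26 CPM in Irp2-/- (SD, n = 3), a log2 fold change of -0.21 (SE 0.054, edgeR adjusted p = 0.0266). The highest Irp1-/- value, 61.9 CPM, was below the lowest Irp2-/- value, 65.8 CPM.

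This difference was also sensitive to single libraries. The adjusted p for Hfm1 was 0.0934 without Irp1-/- replicate 1, 0.0726 without Irp1-/- replicate 6, 0.105 without Irp2-/- replicate 1 and 0.0546 without Irp2-/- replicate 3 (edgeR), with log2 fold changes between -0.25 and -0.16. The comparison shares its Irp1-/- libraries with the one against WT, so the lower Hfm1 level is not a separate observation of those 4 mice.

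An unadjusted p under 0.05 was reached by 6 members, all lower in Irp1-/- (Hfm1, Rad21l, Sycp1, Tex14, Trip13 and Tex15), and by 7.49% of all genes in that direction. The genotypes did not overlap for 4 of them, Hfm1, Sycp1, Trip13 and Tex15, and for 7.67% of all genes in that direction. Rad21l had 3.87, 3.38 and 2.998 CPM in Irp2-/- replicates 1 to 3 and 1.65 to 3.39 CPM in Irp1-/-, with a log2 fold change of -0.59 (SE 0.20, edgeR adjusted p = 0.117). Without Irp1-/- replicate 7, whose value was the highest of its group, Rad21l was called (log2 fold change -0.81, adjusted p = 0.0167 by edgeR).

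Trip13 was at 9.48 ± 0.698 CPM in Irp1-/- (SD, n = 4) and 10.9, 11.9 and 10.5 CPM in Irp2-/- replicates 1 to 3, with a log2 fold change of -0.22 (SE 0.097, edgeR adjusted p = 0.236). Tex15 was at 125.4 ± 3.51 CPM in Irp1-/- (SD, n = 4) and 135.7, 130.8 and 138.9 CPM in Irp2-/-, with a log2 fold change of -0.11 (SE 0.048, edgeR adjusted p = 0.266). Sycp1 had a log2 fold change of -0.12 (SE 0.046, edgeR adjusted p = 0.183). In all, 22 of the 33 members had a lower level in Irp1-/-, beside 50.6% of all genes, with a median log2 fold change of -0.034.

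In this direct comparison the Sertoli markers Amh, Fshr and Rhox5 and the Leydig markers Hsd3b1 and Insl3 were called higher in Irp1-/-, while the spermatogonial marker Sall4 and the endothelial marker Vwf were called lower (edgeR). DESeq2 called 0 of the Sertoli and spermatogonial markers, 2 Leydig markers higher and 1 endothelial marker lower. Vwf was also called in Irp2-/- against WT, where it was higher (log2 fold change 0.37, adjusted p = 0.0127 by edgeR). Their part in the fitted differences of the meiotic genes was not tested.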

How the data were processed

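The authors deposited raw read counts per gene for 11 testis libraries (Illumina Stranded mRNA kit, paired-end reads). Per the study's methods these were produced by nf-core's RNA-seq workflow on mm10. Which counter it ran is not given in the sources used here. The submitters' processing notes name bcl2fastq 2.20.0.422 and DESeq2. All sample columns were used (0 left out), and genotypes came from the labels. In the column headers Irp1-/- replicate 6 bears the letter R and every other library L, with no meaning stated. Nothing says whether mice of a genotype shared a litter.

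The members were given by name, and members and lists were chosen with earlier results of these data known. In the list of other meiotic prophase genes, 8 matched by an older symbol and 3 were not matched. The main test was edgeR 4.0.16 under R 4.3.3 (TMM, filterByExpr, robust quasi-likelihood test, Benjamini-Hochberg over all genes tested, threshold 0.05), each comparison with its 2 genotypes. SE is the fold change over the root of F, and 95% intervals use the test's t quantile. The fit was tested on simulated data. Total counts per library were 15902473 to 22451417. Counting errors cover sampling of reads only. Alternatives were RLE, library totals, no filter, at least 10 counts in every sample, DESeq2 1.42.0, 1 fit of 11 samples, a replicate block and leaving out each library. Deviations by library used log2(CPM + 0.5). Values by library, or their range, are given for some or all genotypes. They cover members called, with an unadjusted p under 0.05, without overlap between genotypes, or among the highest or lowest 3 by level. From the other lists, called genes are named, or the most abundant gene.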

Additional observations from a re-analysis of the deposited data

Results flagged for a closer look

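Hfm1 differed between the knockouts: the log2 fold change of Irp1-/- minus Irp2-/- was -0.21 in the direct test (edgeR adjusted p = 0.0266), with the limits given above.

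Ccna1 in WT replicate 1 was at 137 CPM, far above the other 3 WT libraries at 120.8 to 122.7 CPM, by Dixon's test for an outlying sample. This was found in 1 of 68 groups of 4 samples examined, where chance gives about 3.4.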

How the results depend on the processing

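In Irp1-/- against WT, 1 member was called, and 0 with library totals only, 0 with all 11 samples in 1 fit, 0 with the replicate block and 0 to 2 when a library was left out. The 2 were Hfm1 and Syce2, without Irp1-/- replicate 2. The number of genes called there was 164, and 439 with the replicate block. It was 55 to 216 when a library was left out, with 55 without Irp1-/- replicate 1, 102 without Irp1-/- replicate 6, 84 without WT replicate 2 and 106 without WT replicate 4. In Irp2-/- against WT it was 118 to 223, with 118 without Irp2-/- replicate 2, and 0 members were called in every fit. In Irp1-/- against Irp2-/- it was 414 to 763, with 414 without Irp2-/- replicate 2 and 471 without Irp1-/- replicate 1, and 0 to 2 members were called, the 2 being Hfm1 and Rad21l, without Irp1-/- replicate 7.

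Deviations of same-numbered samples correlated between 0.00029 and 0.093, and those of differently numbered samples between -0.135 and 0.121. These ranges overlap, so the check cannot decide whether equal numbers mark pairs. With the replicate block, Hfm1 had an adjusted p of 0.225 against WT and 0.110 against Irp2-/-, and Rad21l one of 0.0279 against Irp2-/-. In Irp1-/- against WT only numbers 1 and 2 occur in both genotypes, so that fit rests on fewer samples.

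Some log2 fold changes near 0 changed sign. In Irp1-/- against WT, Syce1 was -0.081 with the replicate block and -0.020 to 0.027 when a library was left out, and Stag3 -0.0069 to 0.021. Hfm1 in Irp2-/- against WT ranged from -0.019 to 0.071. Over all alternatives, 18 of 32, 15 of 32 and 16 of 33 members changed sign at least once in the 3 comparisons in the order above, and the causes were not tested. The count of members lower in Irp1-/- than WT was 21 to 25, and their median log2 fold change -0.053 to -0.031, when a library was left out. The number of mice limits the precision for the abundant members, and the read depth that for Mei4. Rad21l and Mnd1 had low counts too. Their coefficients of variation in Irp1-/- (33.3% and 24.6%) also lay above the counting errors given for WT (13.7% and 15.5%).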
